A study of Mus musculus with 6 samples.

Results

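The 9 genes described here encode the enzymes that place methyl groups on cytosine in DNA (Dnmt1, Dnmt3a and Dnmt3b), those that start their removal (Tet1, Tet2 and Tet3), and proteins that read the mark (Uhrf1, Mbd1 and Mbd2). They were picked for their role, with earlier results of these data known, and matched by symbol. Measured values enter the rule only where a gene has several probe sets, of which the one with the highest mean is kept. Each was measured by 1 probe set, so these are 9 of the 30710 genes that the array covers under a single name, within 65956 probe sets in all. Liver RNA came from 6 male mice aged 8 weeks, with 1 array per mouse. The 3 mice of the HFD-inulin group were offspring of mothers given inulin, a fermentable plant fibre, and the 3 of the HFD group were offspring of mothers on a high-fat diet (HFD). HFD stands in the titles of both groups, but whether the inulin-treated mothers also received a high-fat diet is not known, so an effect of inulin and one of the base diet cannot be told apart. Strain, the offspring's own diet, and whether the mice of a group shared a mother do not appear in the labels, so the p-values speak only of the spread among 6 samples, which may be partly shared. The study asked how the liver transcriptome of offspring differs with the mother's inulin. The genes below bear on one mechanism by which a mother's diet is thought to leave a lasting trace.

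DNA methylation in mammals sits mostly on cytosines followed by guanine (CpG). DNMT3A and DNMT3B set new marks, and DNMT1, brought to freshly copied DNA by UHRF1, restores the pattern after each round of replication. TET enzymes oxidise 5-methylcytosine, which leads to its loss, and need iron and 2-oxoglutarate to do so. Proteins with a methyl-CpG-binding domain, such as MBD1 and MBD2, bind methylated CpG and recruit repressor complexes. Adult hepatocytes divide rarely, and the methyl donor for the reaction, S-adenosylmethionine, is made in the liver in large amounts.

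The start sites of these genes differ widely in CpG content, the substrate of the enzymes they encode. RefSeq promoter windows (GRCm38.p6, 250 bases before to 50 after a start) were taken for 7 of the 9 genes, 12 windows in all. Dnmt1 and Dnmt3a have 3 starts each and Uhrf1 has 2. The chromosome of Mbd1 and Mbd2 was left out of the member windows, though not of the windows they are compared with. The counts below therefore do not cover Mbd1 and Mbd2. The number of CpG per window ran from 2 to 57, against a median of 7 over 32851 windows, and 11 of the 12 lay above that median. The sequences below show both ends of this range, the Tet2 window with 57 CpG and the window of the most upstream Dnmt1 start with 2. Capitals mark CpG in these first sequences.
Tet2, chr3:133544341-133544640, minus strand: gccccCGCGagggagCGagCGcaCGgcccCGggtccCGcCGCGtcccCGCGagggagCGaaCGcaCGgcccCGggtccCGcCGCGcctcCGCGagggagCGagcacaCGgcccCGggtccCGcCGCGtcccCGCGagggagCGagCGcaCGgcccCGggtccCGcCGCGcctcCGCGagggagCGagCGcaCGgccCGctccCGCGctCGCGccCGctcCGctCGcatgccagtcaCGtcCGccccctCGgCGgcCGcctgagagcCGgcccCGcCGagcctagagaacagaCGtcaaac
Dnmt1, chr9:20959839-20960138, minus strand: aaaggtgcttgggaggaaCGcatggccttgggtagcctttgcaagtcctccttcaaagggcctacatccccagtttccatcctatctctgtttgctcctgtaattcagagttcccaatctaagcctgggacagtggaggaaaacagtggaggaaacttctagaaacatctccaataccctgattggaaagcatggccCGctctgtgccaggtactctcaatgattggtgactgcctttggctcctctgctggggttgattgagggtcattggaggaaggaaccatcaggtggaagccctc
Uhrf1 and Dnmt1 are textbook targets of E2F, the factor that switches on genes for DNA replication, so the windows were searched on both strands for 4 forms of its site, TTTCCCGC, TTTGGCGC, TTTGCCGC and TTTCGCGC. Overlapping matches were allowed. A match was found in 2 of the 12 windows, where 2.26% of all windows hold one. The Uhrf1 window below holds TTTCGCGC, in capitals, and the window of the most downstream Dnmt1 start (chr9:20952574-20952873) holds TTTGGCGC and TTTCGCGC. A match is a description of the letters and does not show binding.
Uhrf1, chr17:56304063-56304362, plus strand: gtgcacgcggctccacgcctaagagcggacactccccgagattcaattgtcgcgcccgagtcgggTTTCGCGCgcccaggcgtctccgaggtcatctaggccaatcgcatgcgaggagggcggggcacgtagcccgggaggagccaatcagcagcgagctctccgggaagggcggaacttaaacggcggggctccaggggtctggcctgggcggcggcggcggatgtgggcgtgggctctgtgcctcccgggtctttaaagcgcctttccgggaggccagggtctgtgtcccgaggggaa
The array signal does not tell which of several starts a transcript used.

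No member passed the test between the groups, and the difference was at most 0.10 in absolute size in 8 of the 9 genes. Across these 8, the difference of group means (HFD-inulin minus HFD) lay between -0.09 and 0.10 on the log2 scale. In absolute size they exceeded from 6.60% (Dnmt3a) to 57.0% (Dnmt3b) of the 19922 named genes whose mean reached the median probe set. The median absolute difference of those genes was 0.08. Mbd1 was the exception in size, at -0.47. In limma, with p-values adjusted by Benjamini-Hochberg across the 65956 probe sets, 0 of 9 members had an adjusted p under 0.05, as had 0% of all probe sets. With a trended and robust prior and with ordinary least squares the count of members was also 0. At an unadjusted p under 0.05 there was 1 member of 9, Mbd1, where 5.15% of all probe sets lay under that value. In 0 of 9 members were the groups free of overlap, against 10.3% of all probe sets (4.32% with higher and 6.02% with lower values in HFD-inulin). The median difference was -0.05 over the members and -0.02 over all probe sets.

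**Figure D1:**
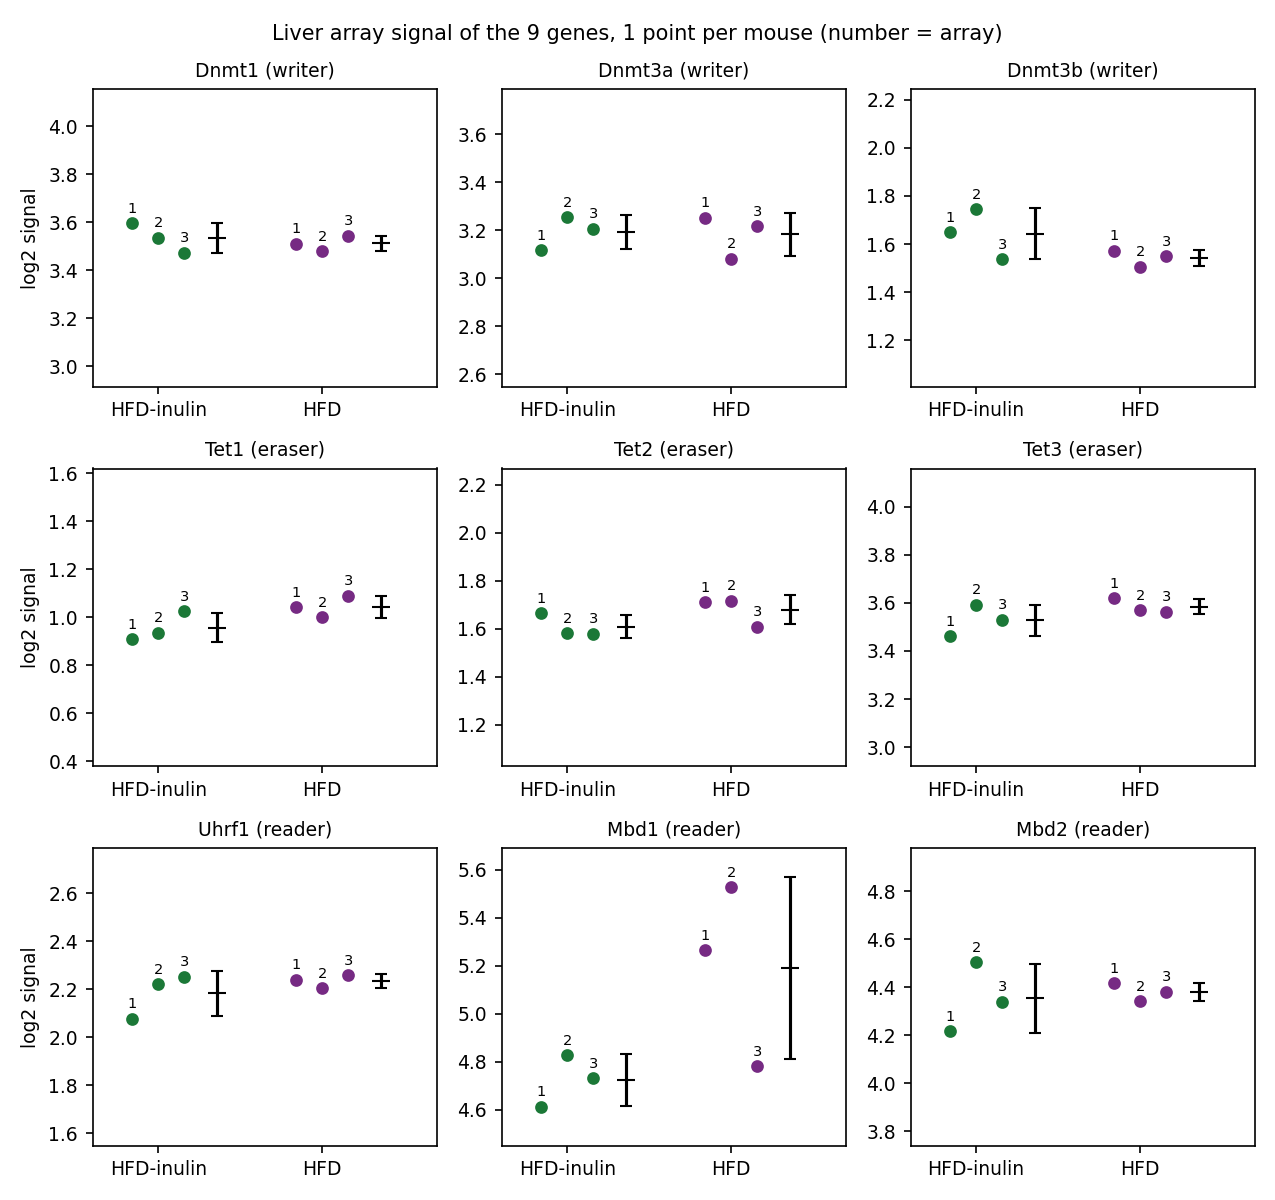
Log2 signal (vertical axis, the same span of log2 units in each panel) of the 9 genes in the livers of HFD-inulin and HFD mice. Each point is 1 mouse, numbered by array, and the black bar is the group mean ± SD (n = 3). The groups overlap in all 9 panels, and the widest spread is that of Mbd1, from 4.61 to 5.53.

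The labels give no batch, but the mean signal of chromosome Y probe sets with identical values splits the arrays across the groups, at 1.34 to 1.91 in HFD-inulin arrays 1 and 2 and HFD array 1 (low-signal arrays) and 2.99 to 3.24 in HFD-inulin array 3 and HFD arrays 2 and 3 (high-signal arrays). The first principal component, the main axis of variation over all probe sets (53.1% of the variance), separates the same arrays. The cause of this split is unknown. Values within each side are given for the members, and for genes named from related lists where the sign changes or unadjusted p was under 0.05. The labelled tissue was borne out by its markers, with 7 of 8 hepatocyte markers measured and mean log2 signals between 7.13 for Hnf4a and 11.5 for albumin. Array medians lay between 1.17 and 1.26, and a signal near them carries little above background. Tet1, at a mean below the median probe set (1.22), is in that range, and the other 8 members lay above that median. Of these 8, Dnmt3b (mean 1.59) and Tet2 (1.64) were nearest to it, and their signals are also close to background. In bulk tissue, a change in the cells that make a transcript and a change in RNA per cell cannot be told apart.

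Of the 3 writers, Dnmt1 and Dnmt3a differed by at most 0.02 between group means and Dnmt3b by 0.10, and none passed the test. Dnmt1, the maintenance methyltransferase, measured 3.60, 3.53 and 3.47 in the HFD-inulin livers and 3.51, 3.48 and 3.54 in the HFD livers, in the order of arrays 1 to 3 here and below. The highest and the lowest value both belong to the HFD-inulin group, and the HFD values lie between them. The difference was 0.02 (SE 0.06, 95% interval -0.13 to 0.18, limma adjusted p = 0.969), and 0.06 and -0.04 on the low-signal and high-signal sides of the split. Its whole range over the 6 arrays, 0.12, was the smallest among the members. Dnmt3a, the main de novo enzyme of adult tissues, measured 3.12, 3.26 and 3.21 in HFD-inulin and 3.25, 3.08 and 3.22 in HFD. The groups cover almost the same span. Its difference of 0.01 (SE 0.08, 95% interval -0.17 to 0.19, limma adjusted p = 0.990) was the smallest of the 9. The sign of the Dnmt3a value is not settled, with -0.07 within the low-signal and 0.06 within the high-signal arrays.

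Dnmt3b, the de novo enzyme best known from the early embryo, had the largest difference among the writers and the lowest unadjusted p of the 3. It measured 1.65, 1.75 and 1.54 in HFD-inulin and 1.57, 1.51 and 1.55 in HFD. HFD-inulin arrays 1 and 2 were above all HFD arrays, and HFD-inulin array 3 was inside their range. The difference was 0.10 (SE 0.07, 95% interval -0.08 to 0.28, unadjusted p = 0.217, limma adjusted p = 0.909). It was 0.12 on the low-signal side of the split and 0.01 on the high-signal side, and without HFD-inulin array 3 it was 0.15, or 0.05 without HFD-inulin array 2. Higher values were seen in 7 of the 9 pairs of an HFD-inulin with an HFD array.

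The 3 erasers all had lower means in the HFD-inulin livers, by at most 0.09 on the log2 scale, and none passed the test. Tet1, the TET enzyme of embryonic stem cells and germ cells, was near background at 0.91, 0.94 and 1.02 in HFD-inulin and 1.04, 1.0 and 1.09 in HFD. HFD-inulin array 3 lay above the lowest HFD array, which makes the groups overlap. The difference was -0.09 (SE 0.06, 95% interval -0.24 to 0.07, limma adjusted p = 0.909). It was -0.12 on the low-signal and -0.02 on the high-signal side. Tet2, the TET enzyme often mutated in blood cancers, measured 1.66, 1.58 and 1.58 in HFD-inulin and 1.71, 1.72 and 1.61 in HFD. HFD-inulin array 1 exceeded HFD array 3, and the other values were ordered by group. The difference was -0.07 (SE 0.07, 95% interval -0.23 to 0.09, limma adjusted p = 0.922), and -0.09 and -0.08 within the low-signal and the high-signal arrays.

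Tet3, the TET enzyme of the fertilised egg that is also found in many adult tissues, measured 3.46, 3.59 and 3.53 in HFD-inulin and 3.62, 3.57 and 3.56 in HFD. HFD-inulin array 2 lay inside the HFD range, and the others were below it. Its difference was -0.06 (SE 0.06, 95% interval -0.21 to 0.10, limma adjusted p = 0.934), and -0.09 and -0.04 on the low-signal and high-signal sides. The sign of all 3 Tet differences was kept with each array left out in turn, after quantile normalization and after median centring. In the last of these the values are taken relative to the array medians, which shifts the median of all probe sets from -0.02 to 0.02.

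**Figure D2:**
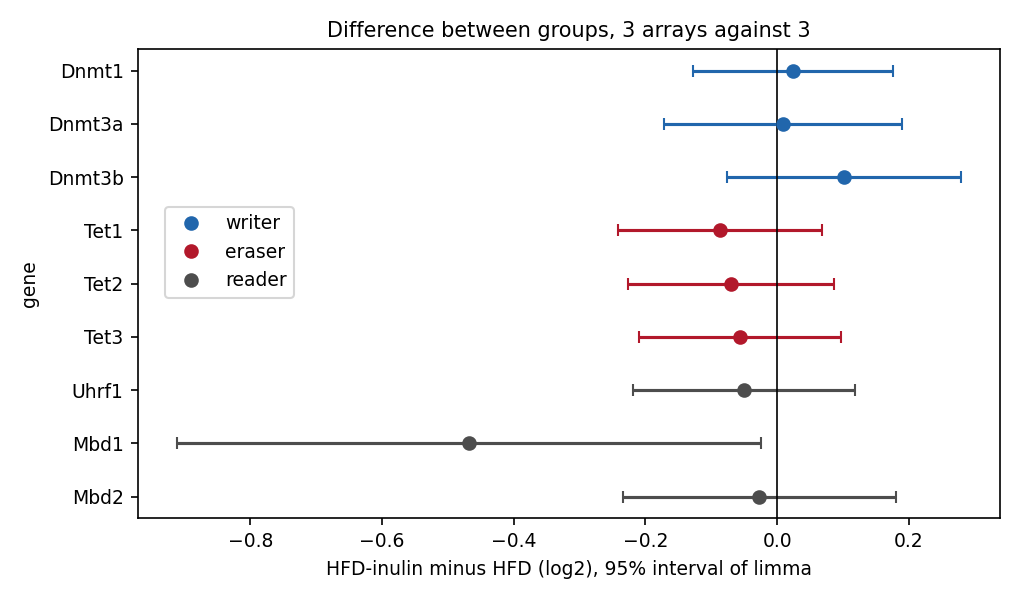
Difference of group means in log2 units (horizontal axis) with its 95% interval from limma for the 9 genes (vertical axis), 3 HFD-inulin against 3 HFD arrays, coloured by role. In 8 genes the interval includes 0 and stays between -0.24 and 0.28, and for Mbd1 it runs from -0.91 to -0.03.

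Of the readers, Uhrf1 and Mbd2 differed little, and Mbd1 had the largest difference of all 9 genes. Uhrf1, which recognises hemimethylated CpG behind the replication fork and brings in DNMT1, measured 2.08, 2.22 and 2.25 in HFD-inulin and 2.24, 2.20 and 2.26 in HFD. Only HFD-inulin array 1 fell outside the HFD range. The difference was -0.05 (SE 0.07, 95% interval -0.22 to 0.12, limma adjusted p = 0.948), and without HFD-inulin array 1 it was 0.0023. On the low-signal and high-signal sides it was -0.09 and 0.02. Mbd2, a subunit that directs the NuRD repressor complex to methylated DNA, measured 4.22, 4.50 and 4.34 in HFD-inulin and 4.42, 4.34 and 4.38 in HFD. Here the HFD-inulin arrays hold both extremes. The difference was -0.03 (SE 0.09, 95% interval -0.23 to 0.18, limma adjusted p = 0.974), and it changes sign to 0.0053 after median centring. On the 2 sides of the split it was -0.06 and -0.02.

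Mbd1, a reader that joins methylated CpG to histone methylation, measured 4.61, 4.83 and 4.73 in HFD-inulin and 5.26, 5.53 and 4.78 in HFD. HFD arrays 1 and 2 stood above every HFD-inulin array, and HFD array 3 lay inside the HFD-inulin range, so the groups overlap by 1 array. The means were 4.72 ± 0.11 (SD, n = 3) and 5.19 ± 0.38. The difference was -0.47 (SE 0.19, 95% interval -0.91 to -0.03), a 0.723-fold ratio, with lower values in 8 of 9 pairs of arrays. The unadjusted p was 0.0412 and the limma adjusted p was 0.902, so it did not pass the test. By the exact permutation test over the 6 arrays, two-sided, p was 0.2, where 3 against 3 cannot go below 0.1.

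The size of the Mbd1 difference rests on which HFD arrays are counted. Without HFD array 2 it was -0.30 (unadjusted p = 0.115), and without HFD array 3 it was -0.67 (unadjusted p = 0.00153, limma adjusted p = 0.9999). The unadjusted p stayed under 0.05 in 1 of the 6 fits that leave out an array. The sign was negative in all 6, and the difference was -0.55 within the low-signal and -0.42 within the high-signal arrays. Its absolute size exceeded that of 96.6% of the 19922 named genes whose mean reached the median probe set. Its spread within groups exceeded that of 84.8% of the probe sets at that level. The other members whose mean reached the median probe set had spreads at percentiles 8.11 to 37.1.

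**Figure D3:**
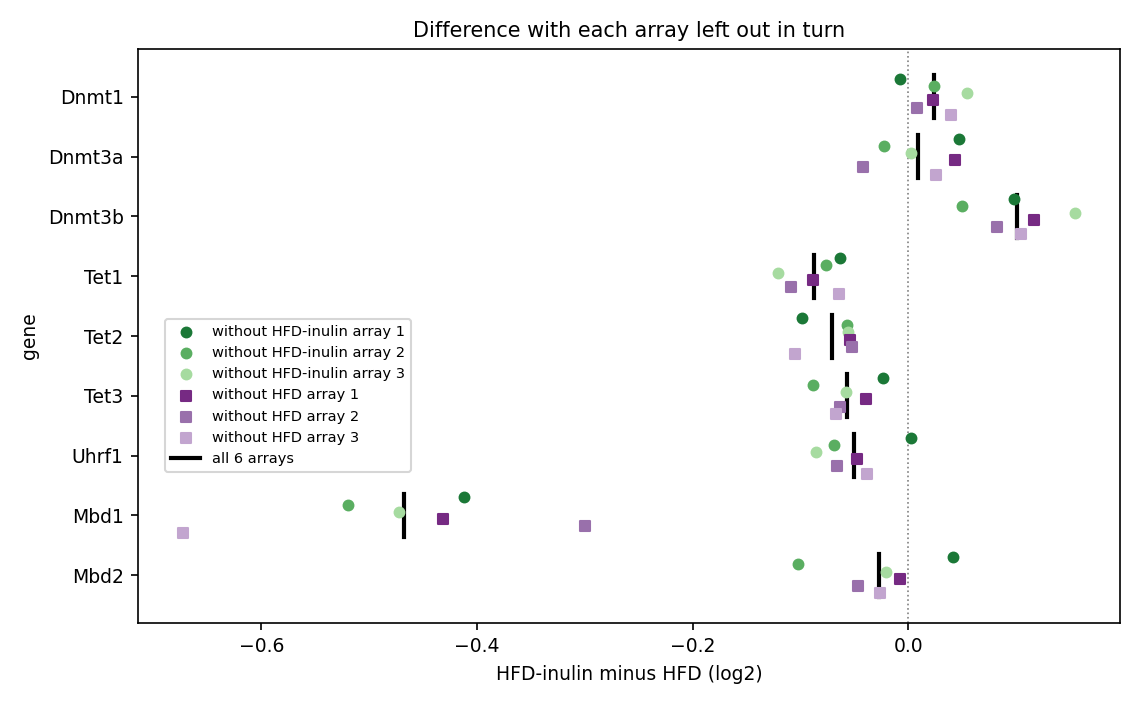
Difference of group means in log2 units (horizontal axis) for each gene (vertical axis) with 1 array left out in turn (points, coloured by the array left out) and with all 6 (black line). The Mbd1 points run from -0.67 to -0.30, while Dnmt1, Dnmt3a, Uhrf1 and Mbd2 have points on both sides of 0.

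Several markers of hepatocytes, sinusoidal endothelium, macrophages and lymphocytes had lower mean signals in HFD-inulin, as Mbd1 did. The mean of the 7 hepatocyte markers was 9.48 to 9.74 in HFD-inulin and 9.80 to 9.86 in HFD, with lower means in 5 of the 7. The largest differences were those of Cyp3a11 (-0.95) and Hnf4a (-0.60, limma adjusted p = 0.390), while albumin differed by -0.10. Apoa1 (0.14) and Fabp1 (0.23) were higher. Cyp3a11 turned from -1.62 on the low-signal to 0.17 on the high-signal side, where Hnf4a stood at -0.52 and -0.68. The 8 sinusoidal endothelial markers averaged 4.75 to 4.84 and 4.85 to 5.0, with lower means in 7 of 8. Kupffer cell and macrophage markers were at 4.65 to 4.86 against 4.82 to 5.02, lower in 6 of 8. Stellate cell markers were at 3.47 to 3.57 against 3.45 to 3.64. Markers of neutrophils (1.42 to 1.76 against 1.38 to 1.50), lymphocytes (1.40 to 1.52 against 1.52 to 1.60, lower in 6 of 7) and cholangiocytes (1.82 to 2.21 against 1.77 to 1.92) were close to background, with 2 of 8, 2 of 7 and 1 of 5 below the median probe set. Of all 30710 genes under a single name, 16309 had lower means in HFD-inulin. The part of these markers in the Mbd1 difference was not tested.

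The array profiles most like those of a member, by the root mean square difference of gene-centred log2 values over the 6 arrays, were sought for 1 writer, 1 eraser and 1 reader. For Mbd1 the nearest among 19921 genes were Irf2bp2 (0.09), Pim3, a serine/threonine kinase (0.09), and Cep85l (0.10). Irf2bp2 measured 4.54, 4.84 and 4.88 in HFD-inulin and 5.28, 5.41 and 4.90 in HFD. In Irf2bp2 as in Mbd1, HFD array 3 was the lowest of its group, but here it stayed just above the HFD-inulin arrays. For Dnmt3b the nearest were Hivep1, Tarbp1 and Gas2l1, and for Tet1 Fam98c, Tent5c and Apbb1ip, at 0.01 to 0.02.

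No other gene of DNA methylation passed the adjusted test either. In 4 related lists with 59 measured genes, 0 passed limma's adjusted threshold, 29 had higher and 30 lower means in HFD-inulin, and 2 had an unadjusted p under 0.05, Apex1 higher and Cbs lower. An unadjusted p under 0.05 was seen in 2.52% of all probe sets in the higher and 2.64% in the lower direction. The groups did not overlap in 2 of the 59, against 10.3% of all probe sets. Partners of the writers (15 of 15 measured) had a median difference of -0.0010 and 0 with an unadjusted p under 0.05. The 4 ranked first by p differed on the log2 scale by 0.12 (Trdmt1, a methyltransferase of tRNA), 0.10 (Pcna, the replication clamp that DNMT1 binds), -0.08 (Cdca7l) and 0.07 (Trim28, a corepressor that protects methylation at imprinted loci). Trim28 stood at -0.04 on the low-signal and 0.17 on the high-signal side.

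Partners of demethylation (14 of 16 measured) had a median difference of 0.02. Apex1, the endonuclease of base excision repair, measured 4.98, 5.01 and 4.45 in HFD-inulin and 4.39, 4.40 and 4.52 in HFD, a difference of 0.38 (unadjusted p = 0.0482, limma adjusted p = 0.902). HFD-inulin arrays 1 and 2 stood apart and array 3 did not, so the difference was 0.60 within the low-signal and -0.01 within the high-signal arrays. Idh1, which makes 2-oxoglutarate, the TET cosubstrate, was also highest in HFD-inulin arrays 1 and 2, with 8.76, 8.44 and 8.11 in HFD-inulin and 8.12, 8.15 and 8.11 in HFD. Its difference was 0.31 (unadjusted p = 0.0876), and 0.48 and -0.02 within the low-signal and the high-signal arrays. D2hgdh, which oxidises the TET inhibitor 2-hydroxyglutarate, differed by -0.18 and the CXXC-domain gene Cxxc5 by -0.11, neither with an unadjusted p under 0.05.

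Other CpG readers and their complexes (14 of 18 measured) had a median difference of -0.02, between -0.14 for Zbtb33, which encodes the methyl-DNA binder Kaiso, and 0.16. None had an unadjusted p under 0.05. Zbtb4, a relative of Kaiso, differed by -0.11 and Hdac1, a deacetylase of the NuRD complex, by 0.11. In Mta3, another NuRD subunit, the groups did not overlap, at 3.42 to 3.51 in HFD-inulin and 3.52 to 3.60 in HFD, a difference of -0.08.

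**Figure D4:**
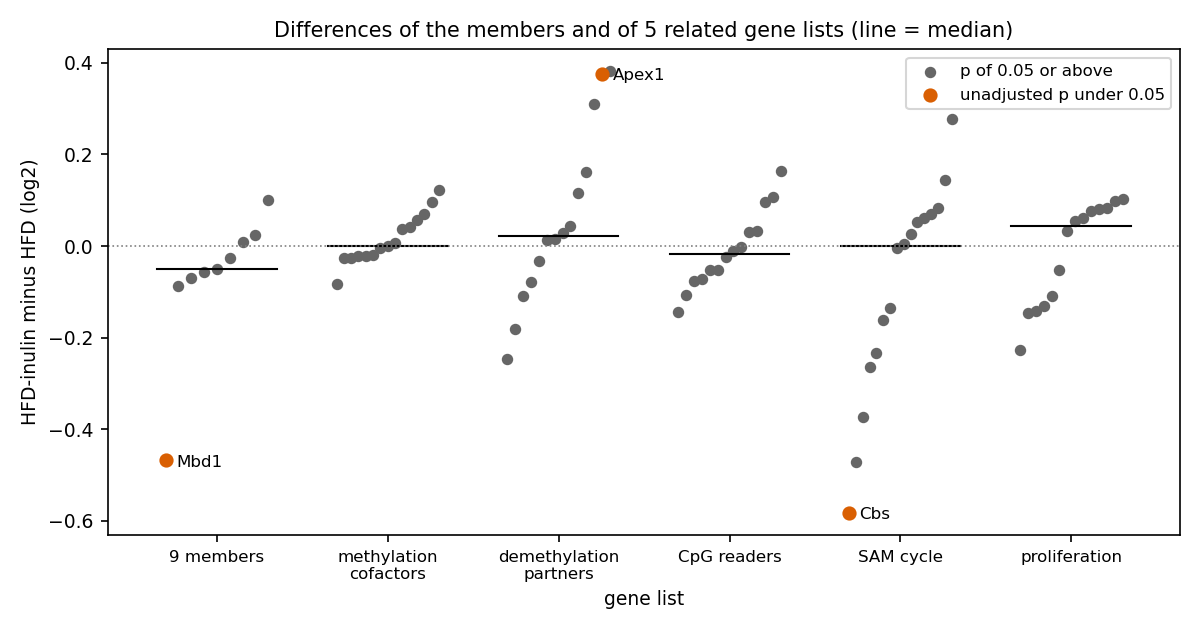
Difference of group means in log2 units (vertical axis) of the 9 members and of the genes of 5 related lists (horizontal axis, SAM for S-adenosylmethionine), 1 point per gene, with the list median as a line. Points with an unadjusted p under 0.05 are in orange, namely Mbd1 (-0.47), Apex1 (0.38) and Cbs (-0.58), and all list medians lie between -0.05 and 0.04.

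Among the related lists, the cycle that supplies the methyl donor held the 2 lowest differences, those of Cbs and Gnmt. Of 18 listed genes 16 were measured, with 8 higher and 8 lower and a median near 0. Cbs, which withdraws homocysteine from the cycle, measured 6.51, 6.53 and 7.14 in HFD-inulin and 7.19, 7.58 and 7.16 in HFD. The groups did not overlap, though HFD-inulin array 3 lay just below the HFD arrays. The difference was -0.58 (unadjusted p = 0.0240, limma adjusted p = 0.902), and -0.67 and -0.23 within the low-signal and the high-signal arrays. Gnmt, the glycine methyltransferase that uses up excess donor, measured 8.84, 8.51 and 9.41 against 9.45, 9.42 and 9.31, with HFD-inulin arrays 1 and 2 low. Its difference was -0.47 (unadjusted p = 0.0677), and it turned from -0.77 within the low-signal to 0.05 within the high-signal arrays. Ahcy, which clears the product inhibitor S-adenosylhomocysteine, differed by -0.23 and Gamt, a methyltransferase of creatine synthesis, by -0.37, both with HFD-inulin array 2 lowest. These too turned sign, from -0.37 on the low-signal to 0.04 on the high-signal side for Ahcy and from -0.85 to 0.18 for Gamt.

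Dnmt1 and Uhrf1 follow the cell cycle in dividing tissue, and proliferation markers were therefore set beside them. Of 16 markers 14 were measured, 8 higher and 6 lower, with a list mean of 1.56 to 1.59 in HFD-inulin and 1.54 to 1.63 in HFD. The 4 with the smallest p were all lower in HFD-inulin, Mki67 (-0.23), Ccna2 (-0.14), Top2a (-0.13) and Birc5 (-0.11), and none had an unadjusted p under 0.05. The next 4 by p were all higher, Mcm2 (0.10), Mcm6 (0.10), Gins1 (0.08) and Mcm3 (0.08), named after their values were seen. Mcm6 stood at -0.01 on the low-signal and 0.14 on the high-signal side. The list median was 0.04. The groups did not overlap in 3 of the 14, Mki67 (lower), Mcm2 and Gins1 (higher). Over all probe sets the share was 10.3%, with 4.32% higher and 6.02% lower. Mki67, whose protein is the Ki-67 antigen of dividing cells, measured 1.03, 0.94 and 1.04 in HFD-inulin and 1.22, 1.06 and 1.42 in HFD. These are signals near the array medians, and those of Ccna2 (mean 0.95) and Top2a (0.79) lay below the medians, within background.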

How the data were processed

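Liver total RNA of 6 mice was biotin-labelled and hybridised to 1 Affymetrix array each. The submitters' processing notes name Affymetrix Expression Console 1.0 as the authors' tool. The deposited values were taken as log2 signals, from their range. How the authors summarized, background-corrected or filtered them is not stated in the labels, and no detection calls were used. Probe sets were named through GEO's platform annotation with symbols updated through RefSeq (GRCm38.p6), and a gene took its probe set with the highest mean. All 65956 probe sets were fitted with limma 3.58.1 (R 4.3.3, lmFit and eBayes, two-sided), HFD-inulin minus HFD, with no filter or covariate, and Benjamini-Hochberg adjustment with a threshold of 0.05. The fit was tested on simulated data. All 9 members are named, with up to 4 genes of each of 5 related lists (smallest unadjusted p) and the 3 genes nearest in profile to 1 member per role. The members and lists were chosen with earlier results of these data known. Replicate numbers did not pair the arrays in the labels. The number of arrays limits the precision.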

Additional observations from a re-analysis of the deposited data

How the results depend on the processing

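Over the 15 alternatives that give a p (14 for Tet1), the adjusted p of the members ran from 0.564 to 0.9999, and no member passed 0.05. The number past the test stayed at 0 of 9 also at a threshold of 0.1. Over all probe sets, limma called 4 with a trended and robust prior and 4 at a threshold of 0.1, against 0. The count of members with an unadjusted p under 0.05, 1 with all arrays, was 0 with ordinary least squares, 0 with only probe sets at or above the median, 0 after median centring and 0 with array weights. It ran from 0 to 1 with an array left out, where 3.18% to 9.89% of all probe sets lay under 0.05. The count of members whose groups do not overlap then ran from 0 to 3 of 9, against 17.8% to 27.0% of all probe sets, since fewer arrays overlap less often. Of 152 values of single members under an alternative, 142 kept their sign. The 10 reversed ones lay between -0.067 and 0.042. Within the high-signal arrays Dnmt1 gave -0.039 and Uhrf1 0.022. Dnmt3a gave -0.0047 with the array split as a block and -0.067 within the low-signal arrays, and Mbd2 gave 0.0053 after median centring. With an array left out in turn, Dnmt1 ran from -0.0073 to 0.055, Dnmt3a from -0.042 to 0.048, Uhrf1 from -0.085 to 0.0023 and Mbd2 from -0.10 to 0.042. The cause of these reversals was not tested. Tet1 kept no value under the filter on dim probe sets.

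With the replicate number as a block, 0 members passed the test and 1, Mbd1, lay under 0.05 without adjustment. Its difference was -0.47, with a limma adjusted p of 0.876. The labels do not pair the arrays, so the numbers were not read as pairs. Arrays of the same number shared deviations with correlations of 0.26, -0.28 and 0.40. These cannot decide on pairing, since the deviations are taken from group means of 3 arrays each. The mean of all probe sets of a gene changes no member's value, since each has 1.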
